A study of Mus musculus with 17 samples.

Results

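Rorb-positive excitatory neurons made up 714 of the 284074 nuclei (0.251%) counted in the posterior brain of 17 mice. They were chosen by raw molecule counts per nucleus. A nucleus had to carry the authors' label of neuron, no doublet call and a cluster other than 13. It had to hold at least 3 unique molecular identifiers (UMIs, counted RNA molecules) of Slc17a7, the vesicular glutamate transporter of cortical excitatory neurons, and at least 5 of Rorb, a nuclear receptor of the retinoid-related orphan family. It could hold at most 1 UMI of Gad1 and Gad2 together, which make GABA, and at most 1 each of Foxp2, Prox1, Tcf7l2 and Slc17a6, which mark deep-layer corticothalamic, dentate granule, thalamic and subcortical excitatory neurons. The label and doublet conditions left 149906 nuclei, and 142659 of them lay outside cluster 13. Slc17a7 left 8984 of these, the Foxp2 limit 7073 and the Rorb minimum 714. Had doublets been kept, 1067 nuclei would have passed, of which 353 (33.1%) carried the doublet call, against 16.8% of all nuclei.

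In the mouse cortex Rorb is a defining gene of the neurons of layer 4, which receive thalamic input in sensory areas, and it is also found in some layer 5 neurons that project within the cortex. Malat1, a long noncoding RNA, is kept in the nucleus at nuclear speckles and is abundant in neurons. An antisense oligonucleotide (ASO) of the kind that recruits RNase H pairs with its target RNA and leads to the cutting of that RNA, in the nucleus as well as in the cytoplasm. Free oligonucleotides in the blood reach the brain poorly. The transferrin receptor (TfR) of brain endothelium carries bound ligands across the vessel wall, and neurons carry the receptor too.

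All 17 mice were females of 2.3 months with a human TfR knock-in on both alleles (hTfR KI HOM), so the controls carried that allele as well. The saline group (n = 4) received the vehicle intravenously. The Malat1 ASO group (n = 4) received the free oligonucleotide at 4 doses of 2 mg per kg. The TfR-Malat1 group (n = 6) received the oligonucleotide joined to an antibody against TfR, and the OTV:Malat1 group (n = 3) the oligonucleotide on the oligonucleotide transport vehicle, an Fc-based carrier that binds TfR, each at 4 doses of 50 mg per kg. The stated duration was 24 days, and the brains were collected 72 hours later than the final dose. The sources used here do not say whether both carriers held equal amounts of oligonucleotide. The comparisons ask how Malat1 and other nuclear RNAs of these neurons differed between each treated group and saline, and between the carriers.

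Each animal gave 13841 to 18365 nuclei and 14 to 125 Rorb-positive neurons, with 92246 to 1043779 UMIs summed over those neurons. The neurons numbered 215 in saline, 145 in Malat1 ASO, 274 in TfR-Malat1 and 80 in OTV:Malat1. They held 1992 to 17902 UMIs per nucleus, with a median of 6549.5, against 4283 in all neurons that met the label, doublet and cluster conditions and 1249 in oligodendrocytes. The median number of genes was 2634. Of 273792 cell barcodes, 10044 (3.67%) occurred in 2 or more libraries. The barcodes of 50 Rorb-positive neurons occurred in another library, and 0 were shared between Rorb-positive neurons of different libraries. Several libraries stood apart from their groups. In Malat1 these were saline replicate 4, Malat1 ASO replicate 4 and TfR-Malat1 replicate 1. The OTV:Malat1 group was too small to be examined for this. Saline replicate 4 held the lowest Malat1 of its group, and the comparisons of Malat1 between OTV:Malat1 and saline are given with and without it. The deposited data named 4 batches, whose meaning was not given, and batch 1 held no OTV:Malat1 animal. Saline replicate 4 was the only saline animal of batch 4, which also held OTV:Malat1 replicate 3. Values without that saline animal therefore leave batch 4 with no saline.

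The values that chose the nuclei are description only. Rorb ranged from 5 to 33 UMIs with a median of 8, and Slc17a7 had a median of 3 UMIs. Foxp2 was at 0 UMIs in 675 of the 714 nuclei, and 30 nuclei held 1 UMI of Gad1 or Gad2. Just inside the Rorb minimum lay 113 nuclei with 5 UMIs, and just outside it 154 nuclei with 4 UMIs and otherwise the same properties. Malat1 took 6.42% of UMIs in the former and 7.13% in the latter, and Kcnh5, a voltage-gated potassium channel, stood at 525 and 495 counts per 1000000 UMIs (CPM).

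The label was checked against marker lists, from which the genes that chose these nuclei or those of the comparison classes were left out. The comparison classes were 333 excitatory nuclei chosen for Cux2 in place of Rorb (the Cux2 class, upper layers) and 731 chosen for Foxp2 (the Foxp2 class, deep layers). Each needed at least 5 UMIs of its gene and at most 1 of Rorb. Nuclei rich in Rorb were thus kept out of both, so levels of genes that go with Rorb are partly set by this choice. Of the 11 genes of a layer 4 list, Rorb and Cux2 were thus left out, and the other 9 were all detected. Their levels summed to 4811 CPM in the Rorb-positive neurons, 1514 CPM in the Cux2 class and 1048 CPM in the Foxp2 class. The highest of them were Brinp3 and Il1rapl2. In nuclei with 5 to 6, 7 to 9 and 10 to 33 Rorb UMIs, Brinp3 stood at 1532, 1413 and 1567 CPM. Il1rapl2 stood at 1015, 910 and 638 CPM, so not all genes of the sum rose with Rorb. The channel gene Kcnh5 stood at 668, 134 and 66.1 CPM in the Rorb, Cux2 and Foxp2 nuclei, and had a UMI in 92.0% of the Rorb-positive ones. Zmat4, a zinc finger gene, stood at 794, 73.8 and 277 CPM, and Whrn, which encodes the scaffold protein whirlin, at 83.5, 2.20 and 4.01 CPM. Scnn1a, a sodium channel subunit used to mark layer 4 in mouse lines, was sparse, at 4.35 CPM with a UMI in 2.94% of nuclei.

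The lists of other layers differed in direction between the classes. The layer 2/3 list summed to 254 CPM in the Rorb-positive neurons and 700 CPM in the Cux2 class. Rasgrf2, an exchange factor for Ras-type GTPases, stood at 163 CPM in the former. The layer 5 list of neurons projecting within the cortex summed to 247 CPM, between the Cux2 class (79.3 CPM) and the Foxp2 class (410 CPM), with Etv1, an ETS transcription factor, at 55.8 CPM. Oligodendrocytes held that list at 332 CPM, led by Sulf2, Parm1 and Etv1 at 119, 102 and 71.9 CPM, so its sum does not set these neurons apart from nuclei that are not neurons. Hs3st2, a heparan sulfate sulfotransferase of the same list, stood at 99.5 CPM in the Rorb-positive neurons and 2.54 CPM in oligodendrocytes. Genes of layer 5 neurons that project out of the cortex summed to 32.9 CPM against 267 CPM in the Foxp2 class. Without Foxp2, the layer 6 corticothalamic and 6b list summed to 682 CPM against 3006 CPM in the Foxp2 class, and 674 CPM of the 682 came from a single gene, Hs3st4, a heparan sulfate sulfotransferase. Its corticothalamic partner Syt6, a synaptotagmin, stood at 0.594 CPM against 117 CPM in the Foxp2 class. The near-projecting list summed to 98.6 CPM, with 98.4 in the Cux2 class and 43.5 in the Foxp2 class, and the hippocampal list without Prox1 to 94.4, 84.1 and 72.2 CPM, so neither was lower in the Rorb-positive neurons. The label of Rorb-positive cortical excitatory neurons was kept, with layer 4 genes high relative to classes held to at most 1 Rorb UMI. The near-projecting list stood at 27.9 CPM in oligodendrocytes. The hippocampal list without Prox1 stood at 1558 CPM there, so its sum is not particular to hippocampal neurons.

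Lists of other cell types were low but not at 0. The oligodendrocyte list summed to 151 CPM, against 174 in the Cux2 class, 151 in the Foxp2 class and 15314 CPM in oligodendrocytes. Mbp, which encodes myelin basic protein, stood at 55.0 CPM. The astrocyte list summed to 208 CPM, against 189 in oligodendrocytes, the microglial list to 56.8, against 53.3, the GABAergic list without Gad1 and Gad2 to 52.4, the oligodendrocyte precursor list to 5.74 and the endothelial and mural list to 1.98 CPM. The endothelial genes Flt1 and Cldn5 and the fibroblast transporter gene Slc6a13 had 0 UMIs.

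**Figure D1:**
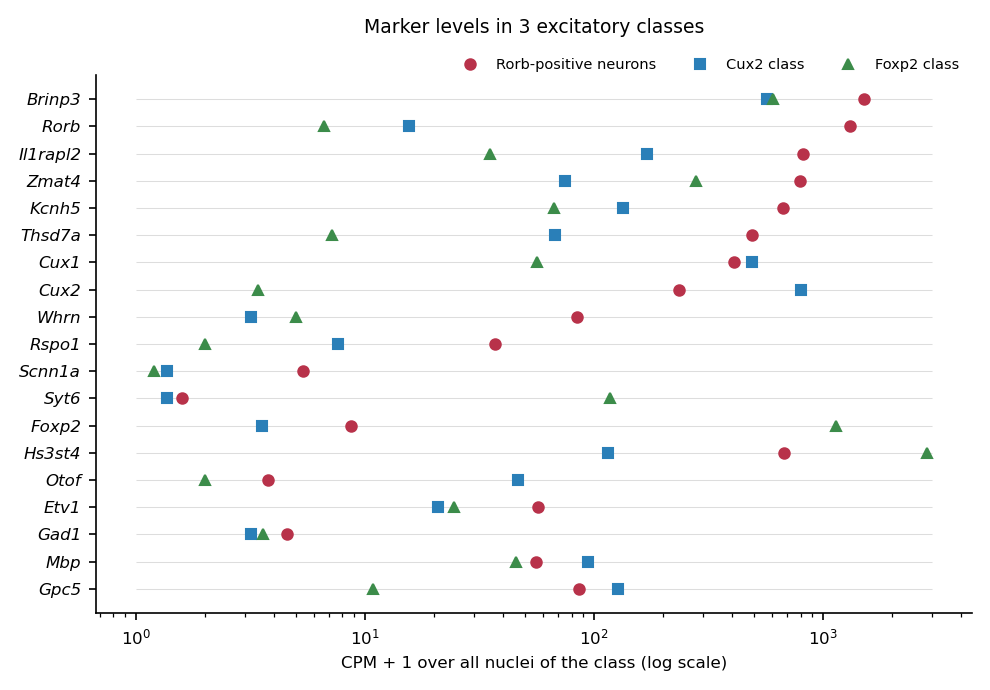
Levels of marker genes (CPM + 1, log scale) over all nuclei of the Rorb-positive neurons, the Cux2 class and the Foxp2 class, 1 point per class and gene. Kcnh5, Zmat4 and Whrn lie farthest right in the Rorb-positive neurons (668, 794 and 83.5 CPM), Foxp2 and Syt6 in the Foxp2 class. Rorb, Cux2, Foxp2 and Gad1 helped choose the classes.

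Genes beyond the marker lists described how these neurons stood apart from their neighbours, given without a test because the classes were cut from the same counts. Among 3516 genes at 50 CPM or more in either class, 124 were over 2-fold higher than in the Cux2 class and 141 over 2-fold lower. On the higher side were Galntl6, a glycosyltransferase-like gene (1332 against 93.3 CPM), Ptprm, an adhesive receptor tyrosine phosphatase (251 against 12.1), the kainate receptor subunit Grik1 (233 against 13.6) and the leak potassium channel Kcnk2 (239 against 16.5). On the lower side were another kainate receptor subunit, Grik4 (23.0 against 163 CPM), the homeobox gene Meis2 (27.5 against 231) and the G protein subunit Gnb4 (4.16 against 86.3).

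Against the Foxp2 class, 297 of 3591 genes were over 2-fold higher and 235 lower. Higher were the netrin receptor Unc5d (1960 against 26.9 CPM), the heparan sulfate sulfotransferase Hs6st3 (3180 against 54.1), the secreted protein gene Tafa1 (1084 against 18.2) and Pparg, a lipid-sensing nuclear receptor (183 against 1.20). Lower were Zfpm2, a cofactor of GATA factors (57.6 against 1486 CPM), the transcription factor Nfia (29.7 against 674) and Nrp1, a semaphorin receptor (9.70 against 372).

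The neurons were not uniform. They fell mainly into cluster 3 of the authors (543 nuclei, 76.1%), cluster 6 (110, 15.4%) and cluster 8 (38, 5.32%), each with nuclei from all 17 animals, and 23 nuclei lay in 4 other clusters. Those in cluster 3 were led by Rspo1, a secreted activator of Wnt signalling (47.9 CPM against 7.98 in the other Rorb-positive neurons), and had more of the homeobox gene Cux1 (497 against 199). Those in cluster 6 had more Il1rapl2, an interleukin 1 receptor accessory-like protein (2150 against 452 CPM), and more Etv1 (161 against 26.6). Those in cluster 8 had more Reln, which encodes the secreted glycoprotein reelin (216 against 22.5 CPM), the glutamate receptor gene Grm8 (933 against 122) and the adhesion gene Ntng1 (2146 against 300). Over the nuclei of all animals together Malat1 took 6.73%, 6.57% and 6.05% of UMIs in the neurons of clusters 3, 6 and 8. Within animals the order was not shared, since clusters 6 and 8 each lay above cluster 3 in 6 of 17 animals, and cluster 8 gave 1 to 4 nuclei per animal. The cluster genes were taken from the same counts as the clusters and are description.

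The makeup by cluster varied between animals. Cluster 3 held 63.2% to 74.4% of the Rorb-positive neurons in the saline animals, 71.4% to 80.0% in Malat1 ASO, 75.8% to 87.8% in TfR-Malat1 and 67.7% to 80.8% in OTV:Malat1. Cluster 6 held 8.33% to 25.5%, 6.67% to 21.4%, 4.88% to 19.4% and 7.69% to 25.8% in the same order. The lowest TfR-Malat1 share of cluster 3 lay above the highest saline share.

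The nuclei were also grouped by their Rorb UMIs. Rorb and Slc17a7 chose the nuclei, so the values of these bins are description only. The 274 nuclei with 10 to 33 Rorb UMIs held 79.6% cluster 3 nuclei, against 72.4% of the 203 with 5 or 6 UMIs. Whrn went from 60.2 to 94.5 CPM and Kcnh5 from 567 to 751 CPM between the low and the high bin, while Il1rapl2 went from 1015 to 638 CPM and Slc17a7 from 550 to 443 CPM. The median depth was 6012 UMIs in the low bin and 7224.5 in the high one, and its part in these values was not tested. Over all animals together Malat1 stood at 64308 CPM in the low bin and 67156 CPM in the high one, but the groups gave different shares of each bin. Over the pooled nuclei of OTV:Malat1 it took 4.16%, 4.59% and 4.30% of UMIs in the bins of 5 to 6, 7 to 9 and 10 to 33 Rorb UMIs, against 6.84%, 7.50% and 7.35% in saline. The values were 7.38%, 7.16% and 6.73% in Malat1 ASO and 6.34%, 6.45% and 6.51% in TfR-Malat1, so the order of the bins differed between groups. Saline replicate 1 gave 63 of the 102 saline nuclei in the high bin, and saline replicate 4 gave 9. The pooled saline values thus lean on replicate 1 and do not show the spread between animals.

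Malat1 was lower on average in the Rorb-positive neurons of OTV:Malat1 animals than in those of any other group. No gene passed the threshold in the main test over 4367 genes. The Malat1 share of UMIs was 7.59%, 7.54%, 7.60% and 4.32% in saline replicates 1 to 4. It was 7.33%, 8.15%, 7.81% and 5.06% in Malat1 ASO, and 4.65%, 6.72%, 7.70%, 8.07%, 6.30% and 5.75% in TfR-Malat1. The OTV:Malat1 animals held 5.37%, 4.19% and 3.64%. Saline averaged 6.76% ± 1.63 (SD, n = 4) and Malat1 ASO 7.09% ± 1.39 (SD, n = 4), while TfR-Malat1 averaged 6.53% ± 1.26 (SD, n = 6) and OTV:Malat1 4.40% ± 0.887 (SD, n = 3). As shares of the saline mean these were 105%, 96.6% and 65.1% for the 3 treated groups. The groups overlapped, because saline replicate 4, Malat1 ASO replicate 4 and TfR-Malat1 replicate 1 lay within the OTV:Malat1 range. All 3 OTV:Malat1 animals lay below the other animals of these groups.

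**Figure D2:**
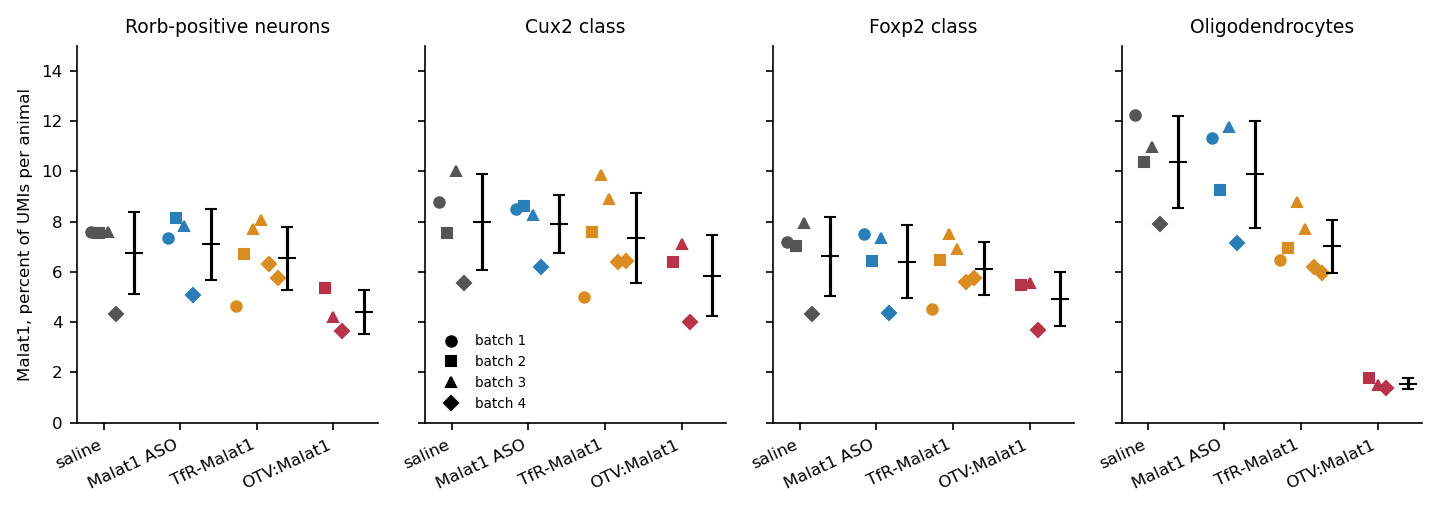
Malat1 as a percent of UMIs in each animal (points, shaped by the authors' batch) with the group mean and SD, for Rorb-positive neurons, the Cux2 class, the Foxp2 class and oligodendrocytes. OTV:Malat1 averages 4.40% in Rorb-positive neurons, where saline replicate 4 at 4.32% falls in its range, and 1.56% in oligodendrocytes, where no saline animal does.

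In edgeR's quasi-likelihood test over 4367 genes, 0 genes (0%) passed a Benjamini-Hochberg adjusted p of 0.05 in any of the 4 comparisons. Malat1 differed between OTV:Malat1 and saline by a log2 fold change of -0.65 (SE 0.18, 95% interval -1.02 to -0.27), with p 0.00148 before adjustment and 0.944 after it. Between OTV:Malat1 and TfR-Malat1 the edgeR change was -0.62 (SE 0.17, interval -0.97 to -0.27), with p 0.00119 before and 0.812 after adjustment. TfR-Malat1 differed from saline by -0.03 (SE 0.15, interval -0.34 to 0.29), and Malat1 ASO by 0.09 (SE 0.17, interval -0.26 to 0.43). Those intervals cover 0 and do not show that the levels were equal. Over the alternatives the lowest edgeR adjusted p was 0.0053 in OTV:Malat1 against saline and 0.0054 against TfR-Malat1, both with all 19526 genes kept. With the batch as a block it was 0.0790 (log2 -0.66) and 0.0439 (log2 -0.67).

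Markers of other cell types varied between animals, with ranges that overlapped between OTV:Malat1 and saline. The astrocyte list summed to 169 to 347 CPM in the OTV:Malat1 animals (median 314) and 131 to 223 CPM in saline (median 170), with 2 of the 3 above every saline animal. The oligodendrocyte list stood at 42.8, 333 and 66.7 CPM in OTV:Malat1 replicates 1 to 3 and at 98.3 to 202 CPM in saline, and the microglial list at 42.8 to 91.6 and 34.0 to 78.6 CPM. Their part in the Malat1 values was not tested.

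Saline replicate 4 moved the Malat1 values. It was the lowest saline animal in the Cux2 class (5.58%), the Foxp2 class (4.31%) and oligodendrocytes (7.92%) too. Leaving it out takes the only saline animal from batch 4, the batch of OTV:Malat1 replicate 3. Without saline replicate 4 the edgeR change in OTV:Malat1 against saline was -0.82 with adjusted p 0.139, and TfR-Malat1 and Malat1 ASO differed from saline by -0.19 and -0.08. Without TfR-Malat1 replicate 1 the edgeR change in OTV:Malat1 against TfR-Malat1 was -0.71 with adjusted p 0.348.

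As a single value, log2(CPM + 1) of Malat1 differed between OTV:Malat1 and saline by -0.60 (exact two-sided permutation p 0.114, adjusted p 0.229 over 4 comparisons). The design of 3 against 4 animals cannot go below an exact p of 0.0571. Without saline replicate 4 the difference was -0.80 (exact p 0.10, the floor of 3 against 3). Against TfR-Malat1 it was -0.57 (exact p 0.0476, adjusted p 0.190), with 2 of 3 OTV:Malat1 animals below every TfR-Malat1 animal. The difference from saline was -0.03 for TfR-Malat1 (exact p 0.857) and 0.08 for Malat1 ASO (exact p 0.600). Within batches 2, 3 and 4 OTV:Malat1 lay below saline by log2 values of -0.49, -0.86 and -0.25, and below TfR-Malat1 by -0.32, -0.91 and -0.73. TfR-Malat1 against saline gave -0.71, -0.17, 0.05 and 0.48 in batches 1 to 4, so its direction was not shared by the batches.

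The response was set beside that of other nuclei of the same animals. Malat1 averaged 7.98%, 7.89%, 7.36% and 5.84% in the Cux2 class for saline, Malat1 ASO, TfR-Malat1 and OTV:Malat1, and 6.62%, 6.41%, 6.13% and 4.92% in the Foxp2 class. In oligodendrocytes it averaged 10.4%, 9.88%, 7.02% and 1.56% ± 0.204 (SD, n = 3). OTV:Malat1 thus stood at 73.3%, 74.3% and 15.0% of the saline mean in these classes, and at 65.1% in the Rorb-positive neurons. Without saline replicate 4 these shares were 66.6%, 66.6%, 13.9% and 58.1%. The classes differed in size. Each OTV:Malat1 animal gave 10 to 16 nuclei of the Cux2 class, while Malat1 ASO replicate 4 gave 2 and saline replicate 1 gave 65. Foxp2 nuclei numbered 19 to 105 per animal, and oligodendrocytes 3578 to 5422. Means and differences that use the Cux2 class thus rest on few nuclei for some animals.

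The log2 difference in Malat1 between Rorb-positive neurons and oligodendrocytes of the same animal was larger in OTV:Malat1 than in saline by 2.12 (exact p 0.0571, adjusted p 0.171 over 12 tests), with 3 of 3 animals above every saline animal. Within batches 2 to 4 that value was 2.05, 2.00 and 2.27, and without saline replicate 4 it was 2.05 (exact p 0.10, the floor). Against TfR-Malat1 it was 1.60 (exact p 0.0238, adjusted p 0.0952), and TfR-Malat1 lay above saline by 0.52 (exact p 0.0190, adjusted p 0.0952) with 5 of 6 animals above every saline animal. None of the 12 passed after adjustment. Those of OTV:Malat1 against saline could not pass at any size of difference, because 0.0571 is their floor. The exact p of 0.0238 is likewise the floor of 3 against 6 animals.

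Depth moved with the comparison. Where nuclei of 3000 or more UMIs were used in every class, the difference from oligodendrocytes was 0.37 in OTV:Malat1 against saline, 0.18 in OTV:Malat1 against TfR-Malat1 and 0.19 in TfR-Malat1 against saline. Only 1037 of 71388 oligodendrocytes are that deep, 100 of them in OTV:Malat1, and their Malat1 averaged 12.7% in saline, with 6.44% ± 0.922 (SD, n = 3) for OTV:Malat1. The part of depth in the difference was not tested.

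Between excitatory classes the differences were smaller. OTV:Malat1 against saline gave -0.14 relative to the Cux2 class (exact p 0.514) and -0.18 relative to the Foxp2 class (exact p 0.229), and without saline replicate 4 -0.18 (exact p 0.50) and -0.19 (exact p 0.30). Against TfR-Malat1 the values were -0.23 relative to the Cux2 class (exact p 0.214, adjusted p 0.392) and -0.24 relative to the Foxp2 class (exact p 0.0238, adjusted p 0.0952). Within batches 2 to 4 OTV:Malat1 against saline gave -0.25, -0.36 and 0.22 relative to the Cux2 class, so that batch 4 had the other sign, and -0.13, -0.35 and -0.02 relative to the Foxp2 class. Against TfR-Malat1 and relative to the Foxp2 class 3 of 3 OTV:Malat1 animals lay below every TfR-Malat1 animal, by -0.08, -0.54 and -0.11 within batches 2 to 4.

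Malat1 was also followed nucleus by nucleus. Each Rorb-positive neuron had at least 62 Malat1 UMIs, and in 80% of them Malat1 made up between 3.97% and 9.32% of UMIs. The share of these UMIs that came from free RNA in the droplets was not measured here. Each nucleus was thinned to 1000 UMIs, which left out 0 of them, and a nucleus was called low below 40 Malat1 UMIs, the 10th percentile of saline with its 4 animals weighted equally. The low share was 3.20%, 2.13%, 5.26% and 29.2% in saline, and 1.37%, 0%, 0% and 23.3% in Malat1 ASO. It was 41.5%, 1.61%, 0%, 0%, 3.64% and 9.30% in TfR-Malat1 and 43.5%, 41.9% and 57.7% in OTV:Malat1. All 3 OTV:Malat1 animals lay above every animal of the other groups, with TfR-Malat1 replicate 1 just below them. With the 25th percentile of saline in place of the 10th, OTV:Malat1 replicate 1 (52.2%) lay below saline replicate 4 (75.0%) and TfR-Malat1 replicate 1 (68.3%), so the groups overlapped. The shares of 0 rest on 14 and 28 nuclei in Malat1 ASO and on 42 and 31 in TfR-Malat1. The thinned shares rest on a random draw of UMIs. The unthinned shares were 34.8%, 38.7% and 65.4% in OTV:Malat1 and 3.20%, 2.13%, 5.26% and 33.3% in saline. In TfR-Malat1 they were 26.8%, 3.23%, 0%, 0%, 1.82% and 6.98%. After thinning to 3000 UMIs the share was 24.4% in TfR-Malat1 replicate 1, 30.4% in saline replicate 4 and 34.8% to 54.2% in OTV:Malat1.

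The mean low share in OTV:Malat1 was higher than in saline by 37.8 percentage points (exact p 0.0571, the floor, adjusted p 0.114) and higher than in TfR-Malat1 by 38.4 (exact p 0.0238, the floor, adjusted p 0.0952). The difference from saline was -0.604 points for TfR-Malat1 (exact p 0.990) and -3.76 for Malat1 ASO (exact p 0.457). With the value of 40 kept, the first difference was 44.2 without saline replicate 4, and the second was 44.8 without TfR-Malat1 replicate 1. Saline replicate 4 had itself lowered that value, which became 57 when the 10th percentile was taken again from saline replicates 1 to 3. The low share was then 13.6%, 8.51% and 5.26% in those replicates and 52.2%, 77.4% and 96.2% in OTV:Malat1, a difference of 66.1 points (exact p 0.10, the floor, adjusted p 0.159). With 57 and without saline replicate 4 the other differences from saline were 19.1 points for Malat1 ASO (exact p 0.0571) and 26.6 points for TfR-Malat1 (exact p 0.190). Both were also positive with 40 kept and that animal left out. OTV:Malat1 replicates 1 and 2 then lay below TfR-Malat1 replicate 1 (85.4%) and below the left-out saline replicate 4 (87.5%). OTV:Malat1 replicate 1 also lay below Malat1 ASO replicate 4 (63.3%) and TfR-Malat1 replicate 6 (58.1%). The order of the animals therefore depends on the value chosen. Each value was taken from the saline animals it was then compared with, and stayed fixed while the labels were permuted. The mean low share of those saline animals was thus held near 10% by the rule. The p-values against saline are therefore not strictly exact. From the 10th to the 90th percentile, thinned Malat1 ran from 21.8 to 84.4 UMIs in OTV:Malat1 replicate 1 and from 20 to 69 in replicate 2, around medians of 51 and 43. In replicate 3 it ran from 24 to 52 around 39, so the range was wider in replicate 1 than in the others. Saline replicates 1 to 3 ran from 54, 58.2 and 58 to 106, 102 and 101 around medians of 78, 76 and 76. Saline replicate 4 ran from 26.5 to 58.8 around 46, and TfR-Malat1 replicate 1 from 32 to 60 around 42. Both of these medians lay within the range of the OTV:Malat1 medians.

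**Figure D3:**
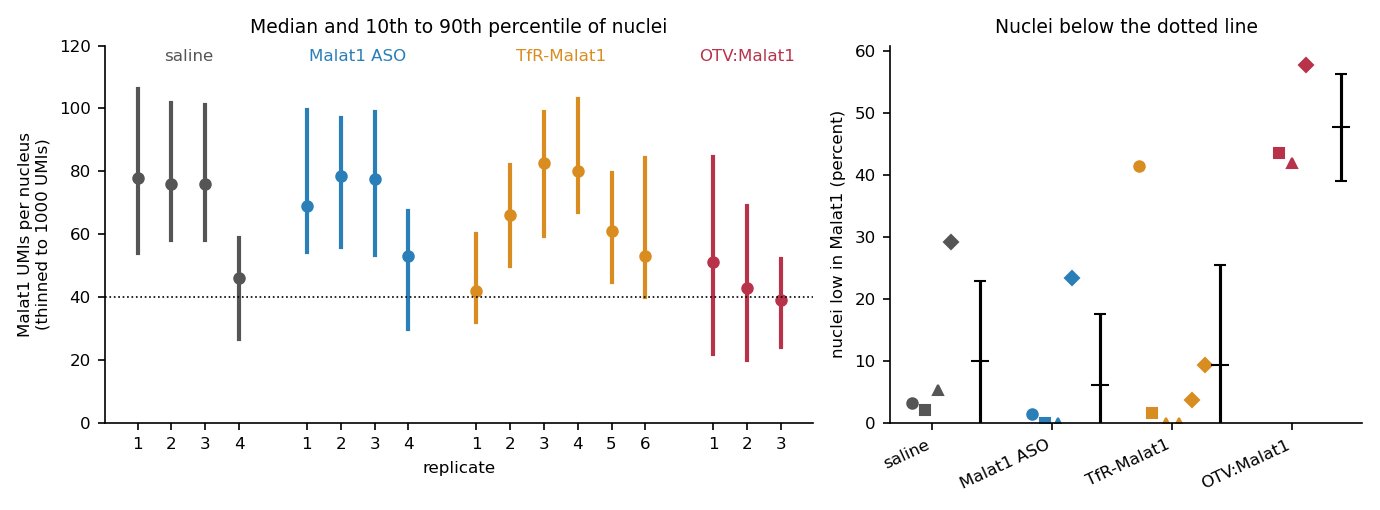
Left, Malat1 UMIs per Rorb-positive neuron after thinning to 1000 UMIs, with the median (point) and the 10th to 90th percentile (line) of each animal, and the value of 40 dotted. Right, the percent of nuclei below that value in each animal with the group mean and SD, SD bars being drawn from 0 up, where the OTV:Malat1 animals lie at 41.9% to 57.7%.

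Subsets of the nuclei gave Malat1 changes in the same direction. Among Rorb-positive neurons of cluster 3, Malat1 differed between OTV:Malat1 and saline by -0.75 (edgeR adjusted p 0.630) and between OTV:Malat1 and TfR-Malat1 by -0.66 (edgeR adjusted p 0.626). With at least 10 Rorb UMIs the edgeR change against saline was -0.85 with adjusted p 0.0415, and against TfR-Malat1 -0.72 with adjusted p 0.148. That setting rests on 5, 14 and 5 nuclei in the OTV:Malat1 animals and on 63, 26, 4 and 9 in the saline animals. With at least 3 Rorb UMIs the changes were -0.68 and -0.67. Without saline replicate 4 the single log2(CPM + 1) value of OTV:Malat1 against saline was -0.90 in cluster 3, -0.96 with at least 10 Rorb UMIs and -0.79 with at least 3 (exact p 0.10 for each, the floor).

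Other RNAs tied to Malat1, to the receptor or to the choice of nuclei were followed as well. Their group CPM values pool the UMIs of all nuclei of a group and are not means over animals. Replicate 1, of batch 1, gave 1043779 of 1655760 UMIs in saline and 529397 of 1000463 in Malat1 ASO. Meg3, another abundant nuclear long noncoding RNA, stood at 6604, 6823, 6744 and 7144 CPM in saline, Malat1 ASO, TfR-Malat1 and OTV:Malat1. Neat1, the RNA that builds paraspeckles and lies beside Malat1 in the genome, had 10, 11, 8 and 0 UMIs in the same order and was too low to test. For OTV:Malat1 a count of 0 allows up to 6.03 CPM (3 counts, counting error only), and the other groups stood at 6.04, 11 and 4.21 CPM. Of the 11 UMIs in Malat1 ASO 10 came from replicate 1, and without it 1 UMI was left (2.12 CPM), while saline without its replicate 1 had 3 (4.90 CPM). Tfrc, the gene annotated as the mouse transferrin receptor, had 39, 22, 42 and 11 UMIs, or 23.6, 22, 22.1 and 22.1 CPM, and was not tested either. How the human knock-in allele enters this count was not examined. Saline replicate 1 gave 31 of the 39 saline UMIs, and without it saline stood at 13.1 CPM. Without OTV:Malat1 replicate 2, which gave 7 of the 11, that group stood at 13.8 CPM. Rorb and Slc17a7, which chose the nuclei, had edgeR log2 values of 0.04 and 0.16 in OTV:Malat1 against saline.

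In OTV:Malat1 against saline 205 of 4367 genes (4.69%) had an edgeR p under 0.05 before adjustment, and DESeq2 called 0 genes after adjustment and 121 before it. Groups did not overlap for 94 genes (2.15%) in the lower and 158 (3.62%) in the higher direction. The genes with the smallest p in each direction were named, none of them past the threshold. Psmd13, a subunit of the proteasome, stood at 71.3, 86.8 and 80.1 CPM in OTV:Malat1 and at 31.6, 23.4, 34.0 and 45.9 CPM in saline, with no overlap (edgeR log2 1.31, SE 0.31, adjusted p 0.552). Rgs17, a regulator of G protein signalling, stood at 99.8, 116 and 93.4 CPM against 226, 187, 221 and 164 CPM, again with no overlap (edgeR log2 -0.98, SE 0.24, adjusted p 0.552).

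Erbb4, a neuregulin receptor that is strongest in interneurons, stood at 121, 77.2 and 20.02 CPM in OTV:Malat1 and at 0 to 26.2 CPM in saline (edgeR log2 2.43, SE 0.60, adjusted p 0.552), and 1 of the 3 animals lay within the saline range. The GABAergic marker list, whose Gad1 and Gad2 the rule limits, summed to 49.9 to 145 CPM in OTV:Malat1 animals and 43.1 to 98.3 CPM in saline, and its part in the Erbb4 values was not tested. Bach2, a transcriptional repressor, and Bcl2, which restrains apoptosis, had edgeR log2 values of -1.16 and -1.17 (adjusted p 0.944 for both). In Bach2 replicate 3 of OTV:Malat1, at 133 CPM, lay within the saline range.

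In OTV:Malat1 against TfR-Malat1 217 genes (4.97%) had an unadjusted edgeR p under 0.05, and groups did not overlap for 34 genes (0.779%) lower and 107 (2.45%) higher. Rgs17 again had the smallest p on the lower side. TfR-Malat1 animals held it at 271, 250, 249, 151, 164 and 188 CPM, all above the 3 OTV:Malat1 animals (edgeR log2 -1.09, SE 0.23, adjusted p 0.232). The comparisons share the OTV:Malat1 animals, so this is no independent repeat. Uhrf2, a ubiquitin ligase that binds modified DNA, also did not overlap (edgeR log2 -1.003, adjusted p 0.812), and Bach2 had -1.26 (adjusted p 0.812). On the higher side Slc22a17, a receptor for lipocalin 2, Fyttd1, an mRNA export adaptor, and Greb1l did not overlap, with edgeR log2 values of 0.95, 0.82 and 0.90 (adjusted p 0.812 for each).

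**Figure D4:**
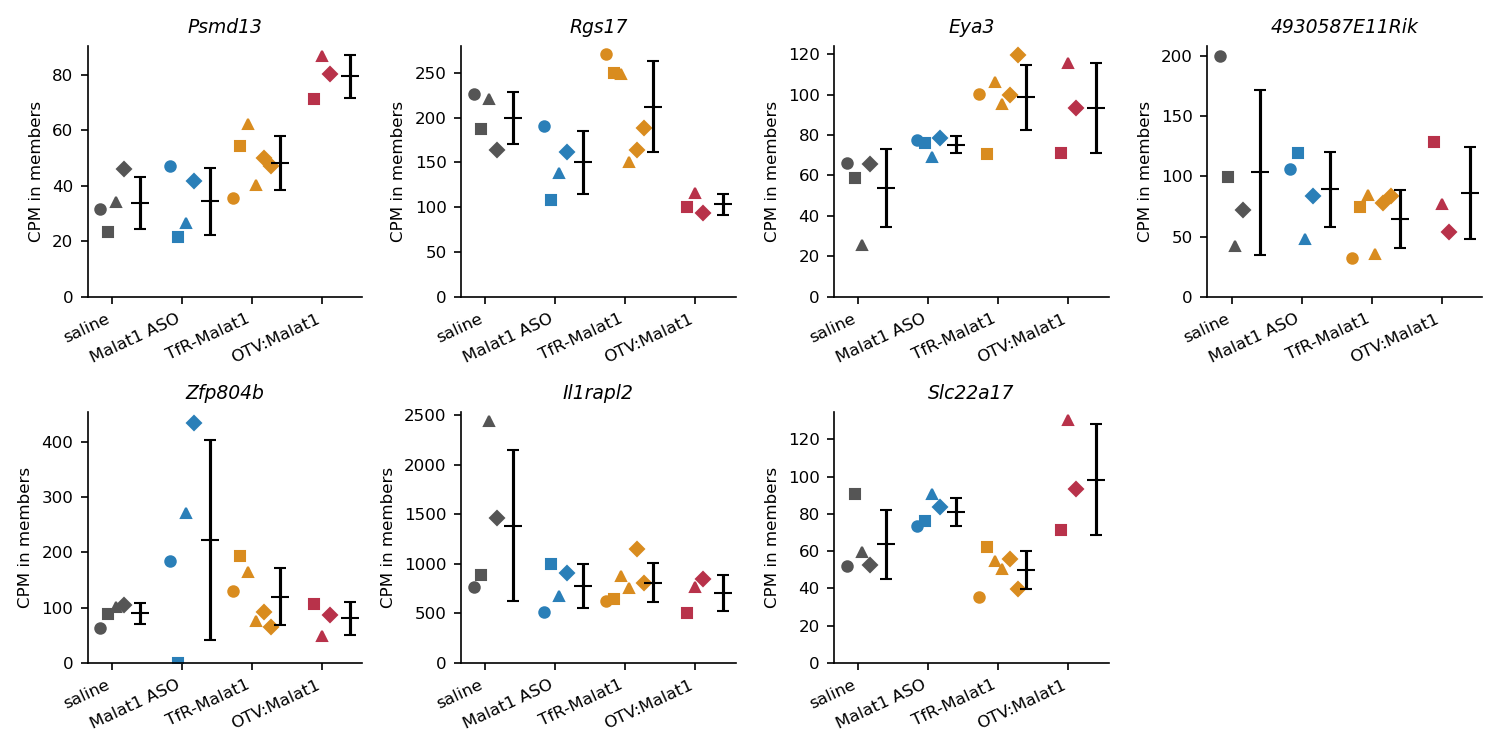
CPM of the named genes with the smallest p on each side of each comparison in the Rorb-positive neurons of each animal (points, shaped by batch), with the group mean and SD. Psmd13 and Rgs17 do not overlap between OTV:Malat1 (71.3 to 86.8 and 93.4 to 116 CPM) and saline, and no gene plotted passed the threshold.

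In TfR-Malat1 against saline 129 genes (2.95%) had an unadjusted edgeR p under 0.05, and groups did not overlap for 15 genes (0.343%) lower and 14 (0.321%) higher. Eya3, a phosphatase and transcriptional coactivator, stood at 70.8 to 120 CPM in the 6 TfR-Malat1 animals and at 25.5 to 65.7 CPM in saline (edgeR log2 0.74, adjusted p 1.00). BC006965, a noncoding gene, also did not overlap (edgeR log2 1.15, adjusted p 1.00). Reln stood at 3.66 to 36.1 CPM in TfR-Malat1 and at 25.5 to 131 CPM in saline (edgeR log2 -1.87, adjusted p 1.00), and Grm8 had -0.90 (adjusted p 1.00). Within cluster 3 alone the edgeR log2 of Grm8 was 0.86. Both are among the leading genes of cluster 8. That cluster made up 1.60%, 2.13%, 15.8% and 16.7% of the Rorb-positive neurons in saline replicates 1 to 4, a mean of 9.05%, and 2.44% to 7.14% in TfR-Malat1, a mean of 5.16%. The part of the cluster makeup in these values was not tested.

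In Malat1 ASO against saline 105 genes (2.4%) had an unadjusted edgeR p under 0.05, and groups did not overlap for 50 genes (1.14%) lower and 38 (0.87%) higher. Il1rapl2 stood at 514, 997, 677 and 904 CPM in Malat1 ASO and at 761, 881, 2440 and 1461 CPM in saline (edgeR log2 -0.81, adjusted p 1.00). Its edgeR log2 was also -0.70 in TfR-Malat1 and -0.94 in OTV:Malat1, comparisons that share the saline animals, where replicates 3 and 4 were high. Cluster 6, of which Il1rapl2 is a leading gene, made up 18.0% of the Rorb-positive neurons in saline as a mean over animals, 15.9% in Malat1 ASO, 10.4% in TfR-Malat1 and 14.1% in OTV:Malat1. In saline replicates 3 and 4, where Il1rapl2 was high, it made up 15.8% and 8.33%, and its part in these values was not tested. Within cluster 3 alone the edgeR log2 in Malat1 ASO was 0.56. Zfp804b had an edgeR log2 of 1.58 (adjusted p 1.00), with 1 Malat1 ASO animal at 0 and 3 at 185 to 434 CPM. Ube2n, a ubiquitin-conjugating enzyme, did not overlap (edgeR log2 -1.05, adjusted p 1.00), and Taf1, the largest subunit of TFIID, had -0.76 (adjusted p 1.00).

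Gene lists for the biology of these neurons and for the treatments held 255 genes in 14 lists, of which 144 passed the filter on low counts. None passed the threshold in edgeR in any comparison. Before adjustment, an edgeR p under 0.05 was met by 8 of the 144 (5.56%) in OTV:Malat1 against saline, 4 each way, against 4.69% of all genes tested. The same count was 3 (2.08%) in TfR-Malat1 against 2.95% of all genes, 1 (0.694%) in Malat1 ASO against 2.4%, and 8 (5.56%) in OTV:Malat1 against TfR-Malat1 against 4.97%. Malat1 itself, a member of the list of nuclear long noncoding RNAs, is 1 of the 8 in each OTV:Malat1 comparison. The shares of both OTV:Malat1 comparisons were near those of all genes, and the other shares lay below them. Group CPM values given for genes of these lists pool the nuclei of each group, so animals with more UMIs weigh more.

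Among receptors, 22 of 30 genes of the glutamate list were tested, with a median edgeR log2 of 0.00 in OTV:Malat1 against saline, where the median of all genes was 0.01. Grm7, a presynaptic metabotropic receptor, stood at 3518 CPM in saline and 3353 CPM in OTV:Malat1. The GABA receptor list (15 of 16 tested) had a median of -0.02.

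Among channels, 23 of 25 potassium channel genes had a median edgeR log2 of 0.07 and 17 of 20 sodium, calcium and pacemaker channel genes one of 0.03 in OTV:Malat1 against saline. Kcnip4, a subunit that modulates A-type potassium channels, stood at 7296, 8460, 8683 and 7598 CPM in saline, Malat1 ASO, TfR-Malat1 and OTV:Malat1. Kcnd2, the A-type channel it binds, stood at 2096, 2053, 2211 and 1757 CPM, with an edgeR log2 of -0.35 in OTV:Malat1 against TfR-Malat1 (p 0.0113 before adjustment, 0.977 after). The synaptic adhesion list (18 of 25) had a median of 0.02, and Ptprd, an adhesive receptor phosphatase, stood at 17632 CPM in saline and 18375 CPM in OTV:Malat1.

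Immediate early genes, which neuronal activity induces, had a lower median. Of 20 listed, 11 were tested, and 8 of the 11 lay below saline in OTV:Malat1 with a median of -0.23 and a range of -1.55 to 0.68, where 48.7% of all genes tested lay below saline. In TfR-Malat1 8 of 11 lay below saline too, with a median of -0.25 (49.6% of all genes). In Malat1 ASO 6 of 11 did, with a median of -0.0042 (48.7% of all genes), and the comparisons share the saline animals. Homer1, a synaptic scaffold with an activity-induced short form, stood at 1360, 828, 459 and 1258 CPM in saline and at 435, 887 and 427 CPM in OTV:Malat1 (edgeR log2 -0.78, p 0.0449 before adjustment, 0.998 after). The 3 animals of batch 1 held Homer1 at 1247 to 1360 CPM whatever their group, and the part of batch was not tested. Nr4a1, an induced nuclear receptor, stood at 183, 170, 136 and 94.5 CPM in the 4 groups (edgeR log2 -0.83, adjusted p 0.971). Egr1, an induced zinc finger factor, went the other way at 70.7, 79.96, 90.04 and 123 CPM (edgeR log2 0.62, p 0.164 before adjustment).

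**Figure D5:**
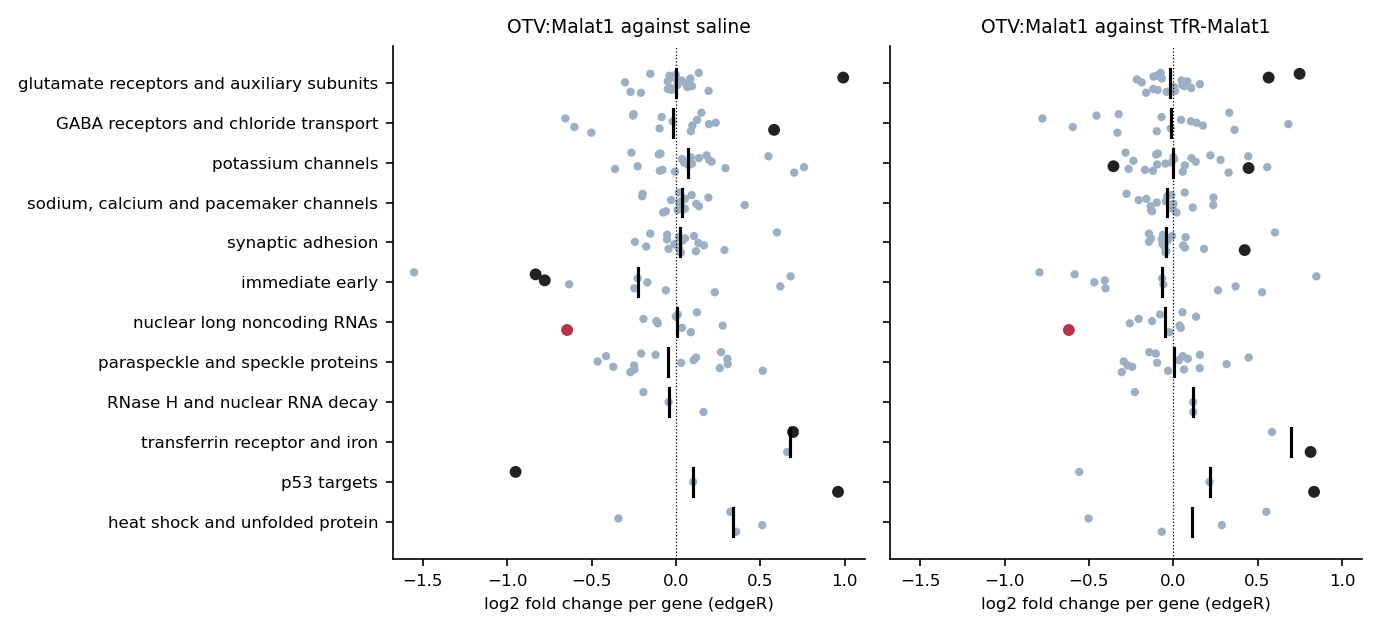
edgeR log2 fold change of each tested gene of 12 lists in Rorb-positive neurons, for OTV:Malat1 against saline and against TfR-Malat1, with the list median as a bar. Black points have an unadjusted p under 0.05 and Malat1 is red. Most points lie between -0.5 and 0.5, Malat1 lies at -0.65 and -0.62, and the immediate early median is -0.23 against saline.

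Lists tied to the RNA targeted and to its handling had medians near 0. The nuclear long noncoding RNA list (10 of 13, Malat1 among them) had a median of 0.01 in OTV:Malat1 against saline, and the list of paraspeckle and speckle proteins (16 of 20) one of -0.05. Srrm2, a scaffold of nuclear speckles, stood at 733, 761, 765 and 738 CPM in saline, Malat1 ASO, TfR-Malat1 and OTV:Malat1. Of 11 genes for RNase H and nuclear RNA decay 3 were tested, with a median of -0.04. The 15 protein-coding neighbours of Malat1 and the 20 interferon response genes had 0 genes with enough counts to test.

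Genes of iron handling and stress were sparse. Of 11 transferrin receptor and iron genes, 2 were tested. Fth1, the ferritin heavy chain that stores iron, stood at 87.0, 97.0, 80.6 and 153 CPM in the 4 groups, and by animal at 121, 222 and 86.8 CPM in OTV:Malat1 against 72.8, 129, 119 and 65.5 CPM in saline, with overlap. Ireb2, a protein that binds iron-responsive RNA elements, stood at 44.1, 56.0, 49.0 and 76.4 CPM. Their edgeR log2 values against saline were 0.66 and 0.69 (adjusted p 0.998 for both). Of 15 p53 targets 3 were tested. Mdm2, the ubiquitin ligase of p53, had 0.96 and Zmat3, an RNA-binding p53 target, had -0.95, in opposite directions (edgeR adjusted p 0.971 and 0.998). Of 15 heat shock and unfolded protein genes 4 were tested, with a median of 0.34, and 0 of them had a p under 0.05.

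The share of nuclei that met the rule was also compared, and is bound to depth because the rule counts UMIs. It was 0.826%, 0.275%, 0.108% and 0.156% in saline and 0.484%, 0.0838%, 0.159% and 0.186% in Malat1 ASO. It was 0.296%, 0.352%, 0.233%, 0.181%, 0.310% and 0.258% in TfR-Malat1 and 0.132%, 0.169% and 0.157% in OTV:Malat1. The 3 OTV:Malat1 animals lay below every TfR-Malat1 animal, by a mean of -0.119 percentage points (exact p 0.0238, the floor, adjusted p 0.0952), and overlapped with saline (-0.188, exact p 0.514). Saline replicate 1 set the latter, which was -0.0270 without it. As an alternative, nuclei under 3000 UMIs were left out and the others were thinned to 3000 UMIs before the rule was applied. The share was then taken of 7318 to 10692 nuclei per animal, of which 1 to 12 met the rule. OTV:Malat1 exceeded TfR-Malat1 by 0.0446 (exact p 0.0238). The direction of this comparison thus turned in this setting. It changed the depth, the strictness of the rule and the nuclei counted together, and their parts were not tested.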

How the data were processed

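Single-nucleus RNA was counted with a droplet method in 17 libraries, each taken as 1 animal. The labels do not say that these were separate animals, so p-values measure only the spread between these libraries, which may be technical. The authors deposited whole-number UMI counts per gene and nucleus, with cell type labels, doublet calls, clusters and batch. Per the submitters' processing notes, Cell Ranger 6.0.1 and Seurat 4 were used, and the genome build was mm10. No source used here gives the roles of the tools or names the doublet caller, and 11 metadata columns were not used.

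UMIs of the chosen nuclei were summed per animal. Genes were filtered by filterByExpr, scaled by TMM and tested in all 17 animals with edgeR 4.0.16 (glmQLFit, glmQLFTest; R 4.3.3), with DESeq2 1.42.0 as an alternative, and p-values were adjusted by Benjamini-Hochberg over all genes with a threshold of 0.05. Fold changes of other values used log2(CPM + 1). Where a single CPM value is given per group, the UMIs of its nuclei were pooled. Single values were tested by an exact two-sided permutation of animals, counting the smaller tail for both sides, and the thinning of nuclei drew UMIs without replacement. Up to 3 genes each way per comparison were named, those with the smallest edgeR p, besides Malat1, Neat1, Tfrc, Meg3, Rorb and Slc17a7. From the lists and classes, the genes of highest CPM or largest ratio were named, and Kcnh5, Scnn1a, Kcnd2, Foxp2, the endothelial genes and the cluster genes after their values were seen. The nuclei, lists and rules were chosen with earlier results of these data known. The 3 comparisons with saline share the saline animals. Some results that the naming rule would give are not reported here. Scripts were tested on simulated data. Doublets called by the authors were left out. Alternatives are given in the closing section.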

Additional observations from a re-analysis of the deposited data

Results flagged for a closer look

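Some animals lay far from the rest of their group, by the gap to the nearest animal over the group's range. Of 68 groups of values examined this way 7 had such an animal, and chance gives about 1 in 20. The OTV:Malat1 group was too small for this rule and was not examined. The lack of a flag there therefore does not show that its animals lay close together. Saline replicate 4 held Malat1 at 4.32% of UMIs in the Rorb-positive neurons, and 29.2% of its nuclei were low in Malat1. In Malat1 ASO replicate 4, 23.3% of the nuclei were low, and in TfR-Malat1 replicate 1, 41.5%. Both replicates numbered 4 belong to batch 4, and TfR-Malat1 replicate 1 to batch 1. Slc17a7 took 0.0449% of UMIs in TfR-Malat1 replicate 2. Luzp2 stood at 25.4 CPM in TfR-Malat1 replicate 6 and Reln at 36.1 CPM in replicate 5.

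In 3 comparisons the Malat1 response of the Rorb-positive neurons differed from that of another class with an exact p under 0.05 before adjustment. Relative to oligodendrocytes the log2 difference was 0.52 in TfR-Malat1 against saline (exact p 0.0190) and 1.60 in OTV:Malat1 against TfR-Malat1 (exact p 0.0238). Relative to the Foxp2 class it was -0.24 in OTV:Malat1 against TfR-Malat1 (exact p 0.0238). The adjusted p was 0.0952 for each over 12 exact tests. With nuclei of 3000 or more UMIs in every class, the values relative to oligodendrocytes were 0.19 and 0.18.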

How the results depend on the processing

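Malat1 stayed lower in OTV:Malat1 than in saline and in TfR-Malat1 in edgeR or DESeq2 under all 12 alternatives run, with log2 changes of -0.85 to -0.58 and -0.76 to -0.61. It passed the threshold with all genes kept (-0.72 in both comparisons), with the batch as a block against TfR-Malat1 (-0.67) and with at least 10 Rorb UMIs against saline (-0.85). Leaving out each animal gave -0.84 to -0.54 and -0.81 to -0.52, none past the threshold. Genes past the threshold, 0 in each comparison, numbered 7 (OTV:Malat1), 9 (TfR-Malat1) and 7 (Malat1 ASO) against saline and 6 in OTV:Malat1 against TfR-Malat1 with all genes kept. The calls on genes that were tested in the filtered fit too, and did not pass there, were Malat1, Erbb4, Thsd7b, Homer1 and Il1rapl2 in OTV:Malat1 against saline, and Reln, Grm8, Luzp2, 4930587E11Rik, 1700016P03Rik, Pcsk5 and Il1rapl2 in TfR-Malat1. In Malat1 ASO they were Zfp804b, Reln, Cdh18, Zfpm2, Pcsk5 and Il1rapl2, and in OTV:Malat1 against TfR-Malat1 Malat1, Thsd7b, Bach2, Reln, Rgs17 and Ntrk2. The last count was 4 with the replicate block (Reln, Rgs17, Ntrk2 and Pde10a), 1 with the batch as a block (Malat1) and 0 to 1 over the animals left out, the 1 being Bach2 without OTV:Malat1 replicate 3. OTV:Malat1 against saline gave 1 with at least 10 Rorb UMIs (Malat1). Malat1 ASO against saline gave 1 among animals with 20 or more of the neurons (Zfp804b) and 0 to 1 over the animals left out, namely Pcsk5 without Malat1 ASO replicate 1 and Zfp804b without replicate 2. The tests took the animals as unpaired. Deviations of 21 same-numbered pairs correlated at -0.06 to 0.23 with 5 over 0.1, against 4 over 0.1 among 85 other pairs. Pairs of the same batch, 27 in number, also had 5 over 0.1. In saline and Malat1 ASO the sample numbers are those of the batches, so number and batch cannot be told apart there. With the replicate block OTV:Malat1 gave an edgeR log2 change of Malat1 of -0.69 from saline and -0.76 from TfR-Malat1.

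Several values near 0 changed direction, and the cause was not tested. In edgeR, Malat1 in TfR-Malat1 against saline was 0.064 with the replicate block, 0.0084 with the batch as a block and 0.044 among animals with 20 or more of the neurons, and ran from -0.19 to 0.059 over the animals left out. In Malat1 ASO it was -0.023 with at least 10 Rorb UMIs and -0.031 in cluster 3, and ran from -0.081 to 0.21. As a single log2(CPM + 1) value the same settings gave 0.034 in TfR-Malat1 among animals with 20 or more, and -0.035 and -0.015 in Malat1 ASO, with ranges of -0.24 to 0.058 and -0.12 to 0.24 over the animals left out. Relative to the Cux2 class, Malat1 ASO against saline gave -0.040 with at least 10 Rorb UMIs, -0.020 in cluster 3 and -0.0042 among animals with 20 or more, and TfR-Malat1 gave -0.015 with at least 10 Rorb UMIs, or -0.042 relative to the Foxp2 class. OTV:Malat1 against saline relative to the Cux2 class ran from -0.26 to 0.044, the latter without OTV:Malat1 replicate 2. The low share in TfR-Malat1 against saline was 5.00 points with the 25th percentile and 2.45 within batches, and ran from -7.03 without TfR-Malat1 replicate 1 to 5.81 without saline replicate 4. In Malat1 ASO it ran from -9.48 to 2.65, the latter without saline replicate 4. With the 10th percentile taken again without that animal the values were 26.6 and 19.1. Among nuclei of 3000 or more UMIs, thinned first to 3000, the share meeting the rule was higher by 0.00844 points in OTV:Malat1 and 0.00359 in Malat1 ASO than in saline, and by 0.0446 in OTV:Malat1 than in TfR-Malat1. Without saline replicate 1 TfR-Malat1 lay above saline by 0.0921 and Malat1 ASO by 0.0484, the lowest values over the animals left out being -0.147 and -0.198. In cluster 3 alone Grm8 in TfR-Malat1 and Il1rapl2 in Malat1 ASO had edgeR log2 values of 0.86 and 0.56 against saline. The alternatives of cluster 3, of subsets or a percentile without saline replicate 4, of 20 or more neurons per animal and of single-value permutation within batches were chosen after seeing the data. The groups of 14 to 125 nuclei per animal limit what these tests can detect.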
